A study of Pimephales promelas with 16 samples.

Results

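The 150 probes described here are those whose level in fathead minnow (Pimephales promelas) ovary explants followed the replicate number in the sample title, in whichever group the array belonged to. They were chosen by measured values. Starting from 15208 probes, the rule kept the 11144 that were well above background on all 16 arrays. It then kept the 7363 whose 3 treated-minus-control differences of group means were each below 0.5 in size on the log2 scale. Deviations from the group means were averaged over the arrays of numbers 3, 4, 5 and 6, and the 150 probes with the largest variance of these 4 averages were taken. A level is the log2 signal of a probe minus the log2 of the array's 75th percentile over probes, so 0 marks that percentile and a difference of 1 is a doubling. Because the same values chose the members, their variation with the number is given as a description and without a test.

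The series compared one-colour microarrays of explants, which are pieces of ovary kept in culture, from females in 4 groups of 4 arrays. The explants of 3 groups were exposed for 12 h to DHT, to flutamide or to LIN, each at 1e-06 M, and the control group carries no agent in its labels, which also name no carrier. DHT is the usual short form of the androgen dihydrotestosterone, flutamide blocks the androgen receptor, and LIN is taken to be linuron, the urea herbicide in the series title. The age of the fish and the number of fish per explant are not given in the sources used here. Titles number the arrays from 1 to 6. Control has numbers 1, 3, 4 and 6, DHT has 1, 4, 5 and 6, flutamide has 2, 3, 5 and 6, and LIN has 3, 4, 5 and 6. What a number stands for is not stated, and neither is whether arrays of 1 group came from different fish. An array is called here by its group and number, as in control 3.

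The fathead minnow spawns repeatedly through its breeding season, and its ovary holds follicles at many stages at once. Transcripts of the growing oocyte, of the follicle cells around it and of the connective tissue and blood between follicles therefore all contribute to RNA from a piece of ovary. A bulk level cannot tell fewer cells of a type from less RNA per cell. Probes carry an identifier and the name of the contig or sequence behind them, and no gene symbol. Of the 14499 sequence names 0 matched the RefSeq gene table of assembly fPimPro1.hap1.1, so no gene, cell type marker or base sequence is given, and ovary markers could not be checked. The 150 members carry 150 different sequence names, 122 of them contigs whose names begin with FJU and 28 sequences whose names begin with gi. In the other 7213 probes within the difference limits, 86.9% had FJU names and 12.9% had gi names, against 81.3% and 18.7% of the members.

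The arrays lay on 3 slides, read on 2 scan days, and slide 1 was scanned on a day of its own. Slide 1 held control 1, DHT 1, flutamide 3, LIN 3, DHT 4, LIN 4 and flutamide 5, slide 2 held flutamide 2 and control 3, and slide 3 held the other arrays. Between 80.9% and 87.8% of probes passed the software's background test. The 75th percentile of signal, lowest at 921 and highest at 3418 over the arrays, was 921 to 1096 on the 2 arrays of number 1, 2582 on the array of number 2 and 1024 to 3020 on the 3 arrays of number 3. It was 1222 to 2028 for number 4, 1969 to 2819 for number 5 and 1995 to 3418 on the 4 arrays of number 6. Number 1 thus lay at the low end of the signal range and number 6 reached the high end, while number 3 spanned most of it. By slide, the percentile was 921 to 1969 on slide 1 and 1995 to 3418 on slides 2 and 3, without overlap. Flutamide 3 and LIN 3, on slide 1, were at 1024 and 1717, and control 3, on slide 2, was at 3020. The part of signal strength in the number pattern was not tested.

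LIN 3 lay between numbers 1 and 3 over the members, which was seen in the data and not in the labels. The size of its departure was not particular to it. Over the members the median absolute difference was 0.34 between LIN 3 and flutamide 3 and also 0.34 between LIN 6 and control 6. In 60 members the mean of control 3 and flutamide 3 differed at least 2-fold from the mean of control 1 and DHT 1. On the linear scale LIN 3 had gone a median of 61.2% of the way from number 1 to number 3 in the 29 of these that were higher in number 3, and 74.5% of the way in the 31 that were lower. It lay between the 2 ends in 29 of 29 and 30 of 31. With control 3 alone as the end of the scale, LIN 3 reached a median of 69.4% and flutamide 3 reached 96.7%. LIN 3 then lay between the ends in 55 of 60 members and flutamide 3 in 37. Flutamide 3 had helped to set which members were among these 60 and LIN 3 had not, so the 2 arrays are not on equal terms. LIN 3 had a part in choosing the 150 members, through the average of number 3 and the limit on treatment differences. Its position over the members is therefore not independent of the rule. The choice of members, the pair correlations, the counts of treatment differences, the partner correlation and the number test are also given without LIN 3. The other values of number 3, its means, class medians and slide medians included, hold LIN 3. Without LIN 3 the rule kept 104 of the 150 members, and all 46 others then lay beyond the limit on treatment differences.

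Members differed widely between numbers. The level of a member spanned 3.10 on the log2 scale at the median over the 16 arrays, an 8.56-fold range, with 2.19 for the narrowest and 5.30 for the widest. The other 7213 probes within the limits spanned 1.11 at the median, a 2.16-fold range. The standard deviation of a member between the 4 number averages had a median of 1.04, against a median of 0.29 between arrays of 1 number. In the other probes these were 0.24 and 0.17. Both standard deviations are of deviations from group means. The groups hold different numbers, so subtracting their means can itself add spread between arrays of 1 number. In 118 of the 150 members, all arrays of number 3, 4, 5 or 6 lay beyond every other array after subtraction of group means. The rule chose for that: 27.2% of the 7363 probes within the limits also had such a number, and nothing is read from the members' count. For number 3 there were 27 such members, and 31 with LIN 3 left out.

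The cut at 150 members fell in a smooth run of values. The last members inside were UF_Ppr_AF_100025 (FJU.13040.C2) and UF_Ppr_AF_115886 (FJU.4630.C1), with a variance of the 4 averages of 0.816 and 0.811. The first outside were UF_Ppr_AF_118384 (FJU.13868.C1) and UF_Ppr_AF_107825 (FJU.10132.C1), both at 0.811 as well. Of the 3781 probes above background on all arrays that lay outside that limit, 423 had a variance at or above the lowest of the members. Without the limit only 13 of the members would be among the 150 most variable probes, and the highest variance outside it was 12.3, against 3.74 among the members. The groups hold different numbers, so a probe that follows the number can also differ between group means. The members are therefore a subset of the probes with a variance that high, and the label holds only within the limit. The list also depended on single arrays: it kept 92 of the 150 members without control 1, 69 without control 3, 66 without control 4, 59 without control 6, 86 without DHT 6 and 97 without LIN 6.

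Members were sorted by the number whose average deviation was largest in size. Number 6 led in 62 members, of which 45 were lower and 17 higher there. Number 4 led in 40, with 21 lower and 19 higher, number 3 in 24, with 13 lower and 11 higher, and number 5 in 24, with 14 lower and 10 higher. In the 45 members lower in number 6, the median deviation from the group mean was -1.38 on control 6, -1.44 on DHT 6, -1.32 on flutamide 6 and -1.54 on LIN 6. In the 17 members higher there it was 1.46 on control 6, 1.54 on DHT 6, 1.46 on flutamide 6 and 1.46 on LIN 6. The control array and the 3 treated arrays of number 6 thus had similar deviations in both classes. In the 11 members higher in number 3 the medians were 1.25 on control 3, 1.42 on flutamide 3 and 1.20 on LIN 3, and in the 13 lower there they were -1.68, -1.41 and -1.13. For number 4 they were 1.29 on control 4, 1.56 on DHT 4 and 1.35 on LIN 4 in the 19 higher members, and -1.59, -1.64 and -1.41 in the 21 lower ones. For number 5 they were 1.26 on DHT 5, 1.31 on flutamide 5 and 1.31 on LIN 5 in the 10 higher members, and -1.56, -1.67 and -1.65 in the 14 lower ones. Within each class the arrays of the leading number all deviated in the direction of the class, and LIN 3 deviated least among the arrays of number 3.

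The member with the largest variance, UF_Ppr_AF_111882 (gi_72439833), had both the highest average deviation in number 5 and the lowest in number 6. Its level was -0.16 on DHT 5, -0.30 on flutamide 5 and -0.13 on LIN 5. On control 6, DHT 6, flutamide 6 and LIN 6 it was -4.51, -4.89, -4.93 and -4.85. The remaining arrays lay between these 2 sets, with -1.44 on control 1, -1.31 on DHT 1, -3.35 on flutamide 2, -1.80, -1.37 and -1.64 on control 3, flutamide 3 and LIN 3, and -1.68, -1.48 and -1.54 on control 4, DHT 4 and LIN 4. No group stood out within a number, and the 4 arrays of number 6 lay 10.9-fold below the mean of the other 12. The control 3 spot of this probe carried an outlier flag of the scanner software. UF_Ppr_AF_104950 (FJU.1518.C1) came next in both directions, at 0.18 ± 0.10 (SD, n = 3) in number 5 and -3.63 ± 0.31 (SD, n = 4) in number 6. It departed from the first probe in number 4, where it was at -2.75 ± 0.08 (SD, n = 3), and in number 1, where it was at 0.64 on control 1 and 0.45 on DHT 1.

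UF_Ppr_AF_102778 (FJU.5075.C3) had the highest average deviation of the members in number 6. Its levels there were 0.59 on control 6, 0.65 on DHT 6, 0.48 on flutamide 6 and 0.42 on LIN 6, and on the other 12 arrays they ran from -3.21 on LIN 5 to -1.69 on flutamide 3. The sets did not overlap, and number 6 lay 8.08-fold above the mean of the others. UF_Ppr_AF_101666 (FJU.5177.C1) was second, at -1.28 ± 0.26 (SD, n = 4) in number 6. It was almost as high in number 1, at -1.61 on control 1 and -1.66 on DHT 1, and on flutamide 2 at -1.40. In number 3 it was at -5.55 on control 3 and -5.53 on flutamide 3 but -3.51 on LIN 3, and in numbers 4 and 5 at -5.17 ± 0.15 and -4.68 ± 0.07 (SD, n = 3 each). This probe was thus high on every array of numbers 1, 2 and 6 and low in numbers 3, 4 and 5, with LIN 3 in between.

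Number 5 had the lowest levels of UF_Ppr_AF_117656 (FJU.7970.C1). They were -5.92 on DHT 5, -6.36 on flutamide 5 and -6.60 on LIN 5, and every other array lay between -3.89 and -2.35. The 3 arrays were 11.1-fold below the mean of the others, and flutamide 5 was on slide 1 and the other 2 on slide 3. UF_Ppr_AM_119717 (FJU.13868.C1) was at -6.60 ± 0.37 (SD, n = 3) in number 5, 7.92-fold below the mean of the others.

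Another 4 named members had the highest or lowest average deviations in number 4. UF_Ppr_AF_108904 (FJU.2635.C1) was at -2.87 on control 4, -2.92 on DHT 4 and -3.04 on LIN 4, 5.98-fold above the mean of the others, which ran from -6.66 on LIN 6 to -4.19 on flutamide 2. UF_Ppr_AF_108988 (FJU.5079.C1) was at -4.41 on control 4, -4.06 on DHT 4 and -4.82 on LIN 4, below every other array and 6.19-fold below their mean. Flutamide 2 was the array next to number 4 for both probes. UF_Ppr_AF_115530 (FJU.9220.C1) was at -5.80 ± 0.23 (SD, n = 3) in number 4. For this probe the next array was flutamide 6, at -4.32, and flutamide 2 was at -4.09. UF_Ppr_AF_104919 (FJU.3893.C1) was highest in number 4, at -1.12 ± 0.11 (SD, n = 3), lower in number 3, at -1.90 ± 0.40 (SD, n = 3), and lowest in number 6, at -5.07 ± 0.86 (SD, n = 4).

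Number 3 had the lowest levels of UF_Ppr_AF_116243 (FJU.4284.C2), at -6.75 on control 3, -6.27 on flutamide 3 and -5.24 on LIN 3, while the other arrays ran from -4.71 to -3.04. LIN 3 was again the array of its number nearest to number 1, where the probe was at -3.18 and -3.50. UF_Ppr_AF_109862 (FJU.676.C1) was at -2.38 on control 3, -2.82 on flutamide 3 and -2.23 on LIN 3. It followed the number closely elsewhere too, with 0.38 ± 0.09 (SD, n = 3) in number 4, -0.32 ± 0.06 (SD, n = 3) in number 5 and 0.32 ± 0.02 (SD, n = 4) in number 6. UF_Ppr_AF_102930 (gi_72448151) was highest in number 3, at -1.79 on control 3, -1.77 on flutamide 3 and -2.58 on LIN 3, against -4.12, -4.12, -3.94 and -4.13 in number 6. UF_Ppr_AF_107106 (FJU.4503.C1) had the highest average deviation in number 3, at -1.76 ± 0.27 (SD, n = 3), but was as high in number 1, at -1.77 ± 0.31 (SD, n = 2). Its levels in number 6 were scattered, from -6.68 on control 6 to -4.15 on LIN 6.

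Arrays outside the averages gave a view of the members that the variance did not use, apart from their part in the group means and in the difference limits. Number 1 has 2 arrays, control 1 and DHT 1, which received different treatments. Over the members their levels correlated at r = 0.986 (150 probes, which share arrays and are not independent replicates), and their median absolute difference was 0.21, with 133 of 150 members within 0.5 of each other. Control 1 differed from the arrays of number 3, 4, 5 and 6 by 0.81, 1.02, 0.66 and 1.33, each the mean of the medians per array. DHT 1 differed from them by 0.72, 1.05, 0.70 and 1.23. The pair with different treatments and 1 number was therefore closer over the members than either array was to any other number. The rule chose the members for large differences between numbers 3 to 6, and this order was not particular to them. Over all 11144 probes above background the pair differed by 0.19. Either array differed from the arrays of other numbers by 0.34 to 0.64.

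In level, both arrays of number 1 lay beyond all 14 others in 17 members, 11 higher and 6 lower. The same held for 15.6% of the 7363 probes within the limits. The rule chose members for large deviations in numbers 3 to 6, and nothing is read from this count. Among these 17, UF_Ppr_AF_111916 (FJU.4076.C1), named after its values were seen, had the widest gap to the other arrays: -2.20 on control 1 and -2.18 on DHT 1, against -6.32 to -3.69 elsewhere. UF_Ppr_AF_108519 (gi_72740614), also named after its values were seen, was at 0.24 and 0.39 in number 1, at -3.01 and -2.96 on control 3 and flutamide 3, and at -1.10 on LIN 3. For each member, an array was also counted as nearer to the mean of the member's leading number or to the mean of the other 3 numbers. Control 1 was nearer to the leading number in 20 of 150 members, DHT 1 in 22 and flutamide 2 in 35, and control 1 and DHT 1 fell on the same side in 142. The leading number is the most extreme by definition, so low counts are built into this comparison. The counts were not made over other probes, and nothing is read from them. Flutamide 2, the only array of its number, differed least from number 1, by 0.74, and then from numbers 3 and 4, by 0.82 each.

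Arrays of 1 number resembled each other over the members whatever their group. Over the 16 same-number pairs r of the levels ran from 0.960 to 0.994, and over the 104 pairs of different number from 0.592 to 0.906. Without LIN 3 the ranges were 0.967 to 0.994 and 0.592 to 0.861. Arrays of the same group but different number, 24 pairs, had r from 0.598 to 0.828. The median absolute difference over the members was 0.15 to 0.34 in same-number pairs and 0.55 to 1.85 in the other pairs. Over all 11144 probes above background it was 0.14 to 0.38 and 0.26 to 0.64. The ranges of members and of all probes were thus close in same-number pairs. The larger standard deviation of members within a number, given above, was of deviations from group means and not of levels. In the other pairs the ranges overlapped only from 0.55 to 0.64, and the medians of the pairs were 1.23 in members and 0.39 over all probes. The rule chose the members for the difference between numbers 3 to 6.

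Slide and number overlap in part, and the slide values are these. Within 1 number, the 10 pairs on the same slide had a median absolute difference of 0.23 over the members (median of the pairs) and the 6 pairs on different slides had 0.19. Between numbers, 33 pairs on the same slide had 1.21 and 71 pairs on different slides had 1.27. The same-slide and different-slide pairs do not hold the same numbers: number 1 met number 6 only across slides. The part of slide in these differences was not tested. All arrays of number 6 were on slide 3, and number 1 was on slide 1 alone, so for these the slide and the number cannot be told apart from same-number pairs. Control 4, on slide 3, and DHT 4 and LIN 4, on slide 1, correlated at r = 0.984 and 0.994 over the members. Flutamide 5, on slide 1, correlated with DHT 5 and LIN 5, on slide 3, at 0.987 and 0.993. Control 3, on slide 2, correlated with flutamide 3 and LIN 3, on slide 1, at 0.983 and 0.960. Flutamide 3 and LIN 3 correlated with each other at 0.963.

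Other probes of the same sequence name gave a readout that was not used to choose the members. Of the 150 members 12 had another probe of the same sequence name, none of them a member, and 9 of these were bright enough to enter the fit across all probes. Over the 16 arrays, deviations from the group mean correlated between member and partner at a median of r = 0.63 in these 9 pairs, from -0.26 to 0.91, and at a median of 0.60 without LIN 3. In the 320 other pairs of probes of the same name the median was 0.19. Those pairs hold no probe chosen for a large variance, so these medians are not on equal terms. Of the 9 partners 7 were called for the number by limma's F test (adjusted p below 0.05), where 51.6% of 13101 probes were called. The partner with the lowest r, -0.26, was among the 7 called, so a call does not mean that the partner shared its member's pattern.

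In 5 pairs the partner was above background on all arrays, and r was 0.58 to 0.91. These pairs were picked out after their values were seen. UF_Ppr_AM_120355 followed UF_Ppr_AF_108173 (gi_73450762) at r = 0.91 and was called for the number (limma adjusted p = 3.04e-05). UF_Ppr_AF_117871 followed UF_Ppr_AM_120448 (gi_73464091) at r = 0.89, and UF_Ppr_AF_118384, the first probe outside the cut, followed UF_Ppr_AM_119717 (FJU.13868.C1) at r = 0.88. UF_Ppr_AF_117561 followed UF_Ppr_AM_119104 (FJU_SB_30.631.C1) less closely, at 0.58. The 3 brightest members with a partner gave mixed values. UF_Ppr_AF_104256 (FJU.3566.C2) had r = 0.85 with a partner above background on 12 arrays, UF_Ppr_AF_105963 (FJU.5423.C1) had 0.63 with one above it on 16, and UF_Ppr_AF_108902 (FJU.14121.C1) had 0.44 with one above it on 15. Over all 12 pairs the lowest values, -0.26, -0.18 and -0.01, belonged to partners above background on 13, 1 and 13 arrays.

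Members gave dimmer signals than other probes, and brightness depends on the probe as well as on its transcript. Their mean level had a median of -2.89 and ran from -5.61 to 3.52, against a median of -0.26 in the other probes within the limits. Of 5 equal groups of the 7363 probes by brightness, the dimmest held 62 members and the next 59, and the brightest held 3. UF_Ppr_AF_106656 (FJU.4079.C1), the brightest member and named for that after its values were seen, was at 3.52 on average and lower in number 5. The relative error that the scanner software gives each spot had a median of 10.1% in members and 10.0% in the others. Of the spots of members on all arrays 2 carried an outlier flag. Members lay in rows 2 to 189 and columns 1 to 82 of the array's grid, with medians of 103 and 47, against 96 and 42 in the other probes. The part of brightness in the pattern was not tested.

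Differences between treated and control arrays were limited by the rule, and their values are a description. In limma's fit of group means over 13146 probes, 0 members were called at an adjusted p below 0.05 for DHT, for flutamide or for LIN against control. Over all probes the share called was 0% for DHT, 0.0152% for flutamide and 0.0228% for LIN. The median standard error of a difference was 0.70 in the members in each comparison and 0.31 over all probes. At an unadjusted p below 0.05 there were also 0 members in each comparison, against 2.05% of all probes for DHT, 10.4% for flutamide and 10.4% for LIN. The 2 flagged spots were left out of the fit, which moved UF_Ppr_AF_111882 to 0.59 for DHT and 0.50 for LIN, the only differences beyond the limit.

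The number as a fixed block brought the error of the members close to that of all probes. Their median standard error was then 0.16 for DHT, 0.19 for flutamide and 0.17 for LIN, against 0.17, 0.20 and 0.18 over all probes. With the block 8, 12 and 14 members differed from control by 0.5 or more for DHT, flutamide and LIN. Again 0 members were called with the number as a fixed block, where 0% of all probes passed in each comparison. At an unadjusted p below 0.05 there were 12, 15 and 19 members, 8.0%, 10.0% and 12.7%, and 6.94%, 12.4% and 15.4% of all probes, so the members' shares lay near those of all probes. With the number as a random block 0 members were called, where 0%, 0.106% and 1.12% of all probes were, and 0, 4 and 0 members had an unadjusted p below 0.05, against 997, 1970 and 2383 of all 13146 probes. Without LIN 3 and without a block, 46 members differed from control by 0.5 or more for LIN, against 1 with it. With the fixed block there were 9 without LIN 3 and 14 with it.

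In some members the estimated difference from control was larger in size with the fixed block than without it. UF_Ppr_AF_107219 (FJU.8269.C1) differed from control by -0.39 ± 0.79 (SE) for flutamide without the block and by -1.06 ± 0.26 (SE) with it (limma adjusted p = 0.253). UF_Ppr_AF_110621 (FJU.1701.C1) went from 0.29 ± 0.72 (SE) to 1.02 ± 0.26 (SE) for flutamide (limma adjusted p = 0.253). UF_Ppr_AF_107106 went from 0.42 ± 1.12 (SE) to 0.98 ± 0.36 (SE) for LIN (limma adjusted p = 0.261), and UF_Ppr_AF_104919 from -0.50 ± 1.13 (SE) to -0.90 ± 0.30 (SE) (limma adjusted p = 0.231). The 4 probes were named after their values were seen, as the lowest and the highest blocked difference for each of flutamide and LIN, and 0 of them passed the test.

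Variation with the number was not particular to the members. In a limma fit with group and number over the 16 arrays, an F test for the number called 6759 of 13101 probes, 51.6%. Of the members 149 could be tested and 149 were called, but the rule had used these values and nothing is read from that count. With slide as a further block 4470 probes were called, and with the 13 arrays of numbers 3 to 6 there were 5884. Without LIN 3 there were 6559.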

How the data were processed

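Per the file headers, each deposited array file was written by version 10.7.1.1 of Agilent's Feature Extraction software. The processed signal in it is a linear intensity from which that software had removed background and spatial trend, per the file headers, with no scaling across arrays. A deposited table from the authors holds log2 values, and no source used here names its method. Each of its columns correlated with the log2 signal of its own array at r of at least 0.9995, so its row order and direction are known. The medians of its columns ran from 7.72 to 7.77, so its arrays lay near a common median, by a method that is not known. The software's flags per spot were used as deposited.

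Selection followed the rule given at the opening of the report, with all spots. The members and the lists of results were chosen with earlier results of these data known. Fits used limma 3.58.1 in R 4.3.3, two-sided moderated tests and Benjamini-Hochberg adjustment over 13146 probes well above background on at least 3 of 4 arrays of a group, and left out 185 flagged spots. Of the flagged spots 65 were on control 3 and 48 on flutamide 2, both on slide 2, with at most 13 on any other array. For 45 of the 13146 probes a flagged spot left the number's F test without a value. Numbers pair the arrays: deviations correlated over probes in all 16 same-number pairs (r from 0.348 to 0.783), and the consensus correlation of the random block was 0.631. Pairs of different number had r from -0.533 to 0.410. The highest of these, DHT 1 with LIN 3, was above the lowest same-number pair, LIN 3 with control 3. Alternatives were median scaling, quantile normalization, normexp (on median spot signals with an offset of 50, since the files hold no mean signal), the authors' table, slide and number blocks, other filters and leaving out each array. Partner probes were matched on the sequence name before its suffix, since full names are unique. Named probes were the 2 highest and 2 lowest members of each number, the neighbours of the cut, and the 3 brightest members with a partner; others are marked in the text. Steps were tested on simulated data. The number of arrays limits the precision, and p-values measure the spread between these arrays, which may be technical.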

Additional observations from a re-analysis of the deposited data

Results flagged for a closer look

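In 5 cases a level of a named member stood apart from the other 3 arrays of its treatment group. UF_Ppr_AF_116243 was at -6.75 on control 3 and between -3.48 and -3.04 on the other controls. UF_Ppr_AF_111882 was at -4.51 on control 6 and between -1.80 and -1.44 on the others. UF_Ppr_AF_117656 was at -6.36 on flutamide 5, with the other flutamide arrays between -2.57 and -2.40, and at -6.60 on LIN 5, with the other LIN arrays between -2.94 and -2.35. UF_Ppr_AM_119717 was at -6.93 on DHT 5 and between -3.91 and -3.34 on the other DHT arrays. Each of the 5 was an array of the member's leading number, and the rule chose members for such departures. Chance sets about 5% of groups apart in this way. Over the members 41 of 600 groups were set apart, 6.83%, and over the other probes within the limits 5.36% of 28852. The groups of a probe share numbers and are not independent, and the rule used these values, so nothing is read from the shares.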

How the results depend on the processing

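The list of members depended on the processing. It shared 97 of 150 members with median scaling, 58 with normexp, 13 with no limit on treatment differences and 99 with dimmer probes kept; with quantile normalization, the authors' table, fitted number effects and, chosen after seeing the data, flagged spots left out, it shared 111, 115, 141 and 148. Leaving out 1 array gave 59 to 121. Without control 6, 89 of the 91 lost members lay beyond the difference limit. Of the 150, 128 still had a variance at or above that of the last member. Under normexp 82 of 92 lay beyond the limit, and 59 of 150 kept that variance. Probes called for the number were 11108 with normexp, 4470 with slide as a block, and 5538 to 6944 with 1 array left out. Counts of members called against control were 0 in each comparison with the replicate block as fixed (0 called) and as random (0 called). They were also 0 with slide as a block, median scaling, the authors' table, only probes above background on all arrays, and any 1 array left out. These counts were not made with quantile normalization, normexp, fitted number effects or dimmer probes kept. The rule had limited these differences, and outside the replicate blocks no share over all probes stands beside them. The median correlation with partner probes was 0.59 to 0.72 over the scalings and 0.56 to 0.81 with 1 array left out. Most members were dim, with 62 and 59 of 150 in the dimmest and next dimmest of 5 brightness groups, and the part of brightness was not tested.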
